A study of Mus musculus with 7 samples.

Results

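Translation initiation and elongation factors were followed in RNA from mouse spleen monocytes on 7 Affymetrix Mouse Gene 2.0 ST arrays. The genes are those whose symbol begins with Eif or Eef and a digit, without the Eif2ak kinases and symbols ending in Rik. They were taken from probe sets listing a single symbol, at any level, with the brightest probe set on average standing for each gene. This gave 60 of the 22180 genes with such a probe set. Of the 60, 51 reached a log2 level of 5 on at least 1 array and were tested, among 11119 genes tested in all. Those not tested were Eef1akmt1, Eef1akmt2, Eef1akmt3, Eef1aknmt, Eif2b1, Eif2b2, Eif2c5, Eif4a3 and Eif5a2. The symbol rule also brings in 9 genes outside the roles described here, among them methyltransferases that modify elongation factors and the pseudogene Eif1-ps3. Eif1, Eif2s1, Eif2s3x and Eif4g1 had no single-symbol probe set and were not analysed here.

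Every sample came from cells with wild-type EPCR, a receptor for protein C on endothelial and other cells. Mouse 1 gave 5 samples: unstimulated, HL7G (400 ng/ml), R848 (2 µg/ml), CpG B (2.5 µM) and poly I:C (1 µg/ml). Mouse 2 gave 2 samples, unstimulated and HL7G at the same dose. Stimulation lasted 3 h. HL7G is a monoclonal antiphospholipid antibody, while R848 activates TLR7, CpG B is a DNA oligonucleotide recognised by TLR9, and poly I:C imitates double-stranded RNA and is read by TLR3. The unstimulated and HL7G groups thus had n = 2 and each agonist n = 1, so the agonist groups had no replicate of their own. The labels do not say how the monocytes were selected, nor for how long the unstimulated cells were cultured. An IgG treatment named in the protocol was not analysed here. The comparisons ask how these genes read after the antibody and after agonists of endosomal Toll-like receptors.

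Initiation factors bring the small ribosomal subunit, the initiator tRNA and the capped mRNA together. The eIF2 complex carries the initiator tRNA and eIF2B recharges it with GTP. The eIF3 complex is the scaffold on the small subunit, and eIF4 proteins bind the cap and unwind the leader of the mRNA. Elongation factors then deliver aminoacyl-tRNA (eEF1) and move the ribosome along (eEF2). In monocytes and macrophages, cap binding and eIF2 are well-known points at which cytokine synthesis is controlled. Many mRNAs of elongation factors and of some eIF3 subunits begin with a terminal oligopyrimidine (TOP) tract, through which mTOR signalling controls their translation.

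The arrays differed in more than these genes. Array medians over all 22180 genes lay between 4.57 and 4.64. Several abundant transcripts read low on the unstimulated arrays: of 6 tested transcripts on a list of such genes, 4 were called higher with HL7G and Gapdh was called lower. The mean level of the 7 measured genes of that list was 5.25 (mouse 1) and 6.16 (mouse 2) on the unstimulated arrays, and 6.88 to 7.62 on the stimulated arrays. Of the B cell markers 6 of 8 tested were called higher, with list means of 5.21 and 5.46 on the unstimulated arrays and 5.90 to 6.52 on the others. Of the T cell markers 3 of 5 tested were called higher, with list means of 4.93 and 5.08 against 5.36 to 6.10. Of the monocyte markers 5 of 10 were tested and 1, Lyz2, was called higher. Cx3cr1 ran the other way (-0.82 ± 0.26, adjusted p = 0.0692), Csf1r, Cd14 and Spn had 0.48, 0.40 and 0.28, and the classical monocyte markers Ly6c2 and Ccr2 stayed at or under 4.38 and 4.09 on every array. Over all genes tested, 16.3% were called higher with HL7G and 1.89% lower. The part of these shifts in the results was not tested.

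HL7G against unstimulated gave higher values for most of the family. In limma, 27 of the 51 tested members rose and 0 fell at an adjusted p under 0.05, where 16.3% of all genes tested were called higher and 1.89% lower. With no filter on level the count was 26 of the 60, against 8.32% of 22180 genes called higher and 1.51% called lower. The median difference over all 60 genes was 0.95 on the log2 scale, against -0.12 over all 22180 genes, and 50 of the 60 lay above 0. At an unadjusted p under 0.05 there were 37 of the 51 tested members (35.9% of all genes tested). Fewer cells of a type and less RNA per cell cannot be told apart in bulk samples. Every one of the 27 calls rested on the mouse 1 unstimulated array: without it 0 of the 60 genes and 2 of all genes were called, in a fit with 1 residual degree of freedom, while the median over the tested members was 1.12 against 1.30 with it. With the unstimulated array of mouse 2 left out the count was 16, with 13 calls lost and 2 gained (Eef1a1 and Eif4a1). It was 19 without the HL7G array of mouse 1, where Eef1d, Eef2, Eif1-ps3, Eif1ax, Eif3d, Eif3i, Eif3m and Eif4ebp1 lost the call. It was 35 without that of mouse 2, where Eif4ebp2 lost it and Eef1g, Eif1a, Eif1ad, Eif1b, Eif2b5, Eif2s2, Eif4e, Eif4e2 and Eif5a gained it. Calls lost without the mouse 2 unstimulated array were Eef1d, Eef1e1, Eif1-ps3, Eif1ax, Eif3b, Eif3d and Eif3i. Also lost there were those of Eif3m, Eif4ebp1, Eif4ebp2, Eif4enif1, Eif4h and Eif5b. Shares over all genes in the fits without the mouse 2 unstimulated array or an HL7G array are not given here. The counts from those fits are thus not set against a background. When the test was restricted to the 1337 genes whose mean level reached 6, 11 of 20 members were called against 34.2% of those genes, and the medians were 2.11 and 0.86.

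**Figure D1:**
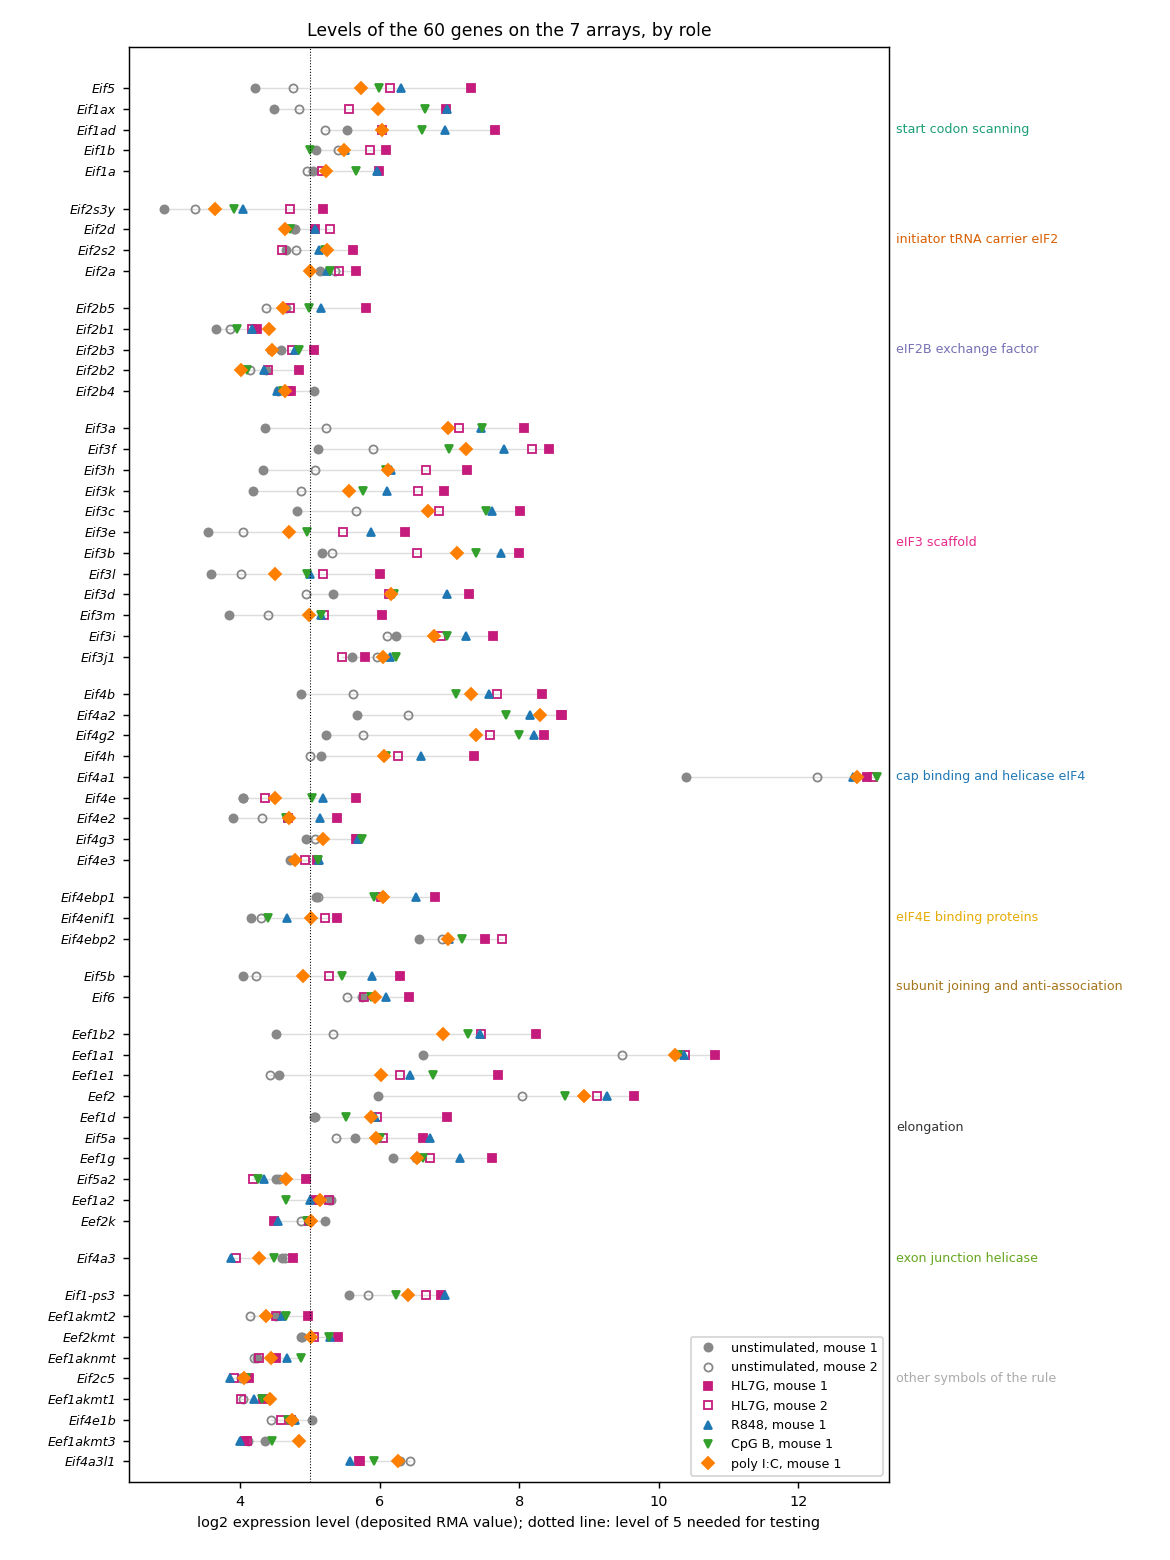
Log2 expression level (x axis, deposited RMA value) of each of the 60 genes (rows, grouped by role) on the 7 arrays. Grey circles are the unstimulated arrays, squares the HL7G arrays and the other symbols the agonists, with open symbols for mouse 2. In 41 genes both grey circles lie left of all 5 stimulated arrays.

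The order of the arrays shows the same without a model. In 41 of the 60 genes both unstimulated arrays lay below all 5 stimulated arrays, which was so for 15.5% of all genes. In mouse 1 alone the unstimulated array was the lowest of the 5 in 43 genes (23.8% of all genes). The opposite order, with both unstimulated arrays above the rest, held for 17.8% of all genes and for 1 member, Eif4a3l1. Of the 51 tested members, 39 had the first order in the deposited values, against 27.4% of all genes tested. After median centring, loess and quantile normalization 35, 32 and 32 had it, and the shares over all genes under these scalings are not given here. Of the 51, 18 were under a level of 5 on both unstimulated arrays, and 10 of these were called. Of the 33 that reached it on an unstimulated array 17 were called.

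Promoter sequences were read for the 45 of 60 genes that RefSeq's promoter table (GRCm38.p6) holds, in windows from 250 bases before to 50 bases after each annotated start. The E-box CACGTG, which reads the same on both strands and is bound by Myc, Max and related factors, was present in 12 of the 45 genes (26.7%) and in 8.09% of all 27025 genes of the table. It occurred in 5 of 20 genes that rose with HL7G (25%) and in 7 of the other 25 (28%), which are like shares. Member windows also had more G and C, with a median of 62.7% against 52.7% over all windows and 58% over all windows with an E-box. The 100 bases before the start are shown for members with an E-box there that rose with HL7G (Eef2, Eif3f, Eif3k, Eif4h) and for Eif4e, the cap-binding protein, with the E-box in capitals.
Eef2, chr10:81176531-81176630, plus strand: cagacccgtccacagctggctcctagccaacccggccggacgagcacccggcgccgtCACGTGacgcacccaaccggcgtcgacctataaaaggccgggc
Eif3f, chr7:108934315-108934414, plus strand: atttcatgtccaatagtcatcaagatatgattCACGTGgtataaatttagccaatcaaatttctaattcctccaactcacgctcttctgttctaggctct
Eif3k, chr7:28981889-28981988, minus strand: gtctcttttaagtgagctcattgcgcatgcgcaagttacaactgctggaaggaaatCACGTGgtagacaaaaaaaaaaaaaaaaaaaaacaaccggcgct
Eif4e, chr3:138527168-138527267, plus strand: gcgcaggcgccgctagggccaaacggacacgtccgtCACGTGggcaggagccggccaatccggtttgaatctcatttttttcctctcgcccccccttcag
Eif4h, chr5:134639410-134639509, minus strand: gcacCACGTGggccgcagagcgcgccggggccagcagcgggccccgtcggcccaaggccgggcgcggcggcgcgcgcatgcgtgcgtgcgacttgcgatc
The first base of the E-box lies 43 bases before the annotated start in Eef2, 68 in Eif3f, 44 in Eif3k, 64 in Eif4e and 96 in Eif4h. A match is a description of the letters and not a binding site.

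A pyrimidine tract of the TOP kind was also searched: a C within 5 bases of the annotated start followed by at least 4 pyrimidines, on the gene's strand. It was found in 11 of the 45 genes (24.4%) and in 21.2% of all genes of the table, which is close. The longest among genes that rose with HL7G was that of Eif3f, with 15 pyrimidines. The 30 bases around its start, 15 on each side, are shown with the tract in capitals.
Eif3f, chr7:108934400-108934429, plus strand: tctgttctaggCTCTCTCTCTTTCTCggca
Of the known TOP mRNA genes in the table, Eef1a1 and Eif3f had a match and Eef1b2, Eef2 and Eif4b had none. The share with a tract therefore does not count the TOP mRNAs among the members. Annotated starts can lie some bases away from the starts used in a cell, so a missing match says only that these letters are not in this window.

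The counts by role given below for the deposited values on all 7 arrays stand beside 16.3% of all genes tested called higher with HL7G. Counts by role or list under other settings are given without the share over all genes in the same fit. Elongation factors included the largest rise in the family. Of 10 genes grouped under elongation, Eef1e1 and the kinase Eef2k among them, 9 were tested. Of these 4 rose (Eef1b2, Eef1d, Eef1e1 and Eef2), and the median difference was 1.11 over the 10. Over the 9 tested the median was 1.40, against 0.82 with 3 calls after loess and 0.89 with 2 calls without the HL7G array of mouse 1. Eef1b2 encodes a subunit of the exchange factor that recharges eEF1A with GTP. On the log2 scale, with mouse 1 given before mouse 2, Eef1b2 read 4.51 and 5.33 unstimulated and 8.24 and 7.45 with HL7G. In mouse 1 it read 7.43, 7.26 and 6.90 with R848, CpG B and poly I:C, and agonist values are given in that order from here on. The groups did not overlap, and the rise with HL7G was 7.62-fold (2.93 ± 0.37, the SE of the log2 difference in limma, from 2 arrays against 2, adjusted p = 0.0120). Eef2, the translocase, read 5.97 and 8.03 unstimulated, 9.65 and 9.12 with HL7G, and 9.26, 8.65 and 8.93 with the agonists. The unstimulated arrays differed by more than 2 log2 units from each other yet both lay below the rest, and the difference was 2.38 ± 0.61 (adjusted p = 0.0386). The call of Eef2 was lost after loess (0.82, adjusted p = 0.0782) and after quantile normalization (1.66, adjusted p = 0.0630), and the difference was 1.35 without the unstimulated array of mouse 1 (adjusted p = 0.122). Eef1e1, also known as AIMP3 and a part of the multi-tRNA synthetase complex, read 4.56 and 4.43 unstimulated, 7.69 and 6.29 with HL7G, and 6.43, 6.75 and 6.01 with the agonists. Its unstimulated arrays were alike and its rise was 5.64-fold (2.496 ± 0.43, adjusted p = 0.0149). Eef1d, another exchange factor subunit, rose by 1.40 ± 0.34 (adjusted p = 0.0335). Eef1g, the structural subunit of that complex, had 0.81 ± 0.33 and was not called (adjusted p = 0.126), and its difference turned to -0.14 after loess (adjusted p = 0.674).

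Eef1a1, which delivers aminoacyl-tRNA to the ribosome, showed the widest split between the mice. It read 6.61 on the unstimulated array of mouse 1 and 9.46 on that of mouse 2, against 10.797 and 10.38 with HL7G and 10.36, 10.27 and 10.23 with the agonists. All 5 stimulated arrays lay within a narrow band above both unstimulated arrays. The HL7G difference was 4.18 in mouse 1 and 0.91 in mouse 2, and the mean difference of 2.55 ± 0.80 did not pass the test (adjusted p = 0.0679). With a block for the mouse it did (adjusted p = 0.0320), as it did when the unstimulated array of mouse 2 was left out (3.97, adjusted p = 0.00409). The difference was smaller after loess (1.02, adjusted p = 0.0714), without the unstimulated array of mouse 1 (1.12, adjusted p = 0.149) and with the mean of its probe sets (1.66, adjusted p = 0.0582). A second, dimmer probe set of Eef1a1 had a mean difference of 0.77. Eef1a2, the paralogue of muscle and neurons, read 4.65 to 5.30 over the 7 arrays with a difference of -0.12 ± 0.21 (adjusted p = 0.703). Eef2k, the kinase that inhibits eEF2, read 5.21 and 4.87 unstimulated, 4.48 and 4.98 with HL7G, and 4.54, 4.95 and 5.01 with the agonists. Its groups overlapped and the difference was -0.31 ± 0.26 (adjusted p = 0.420). Eif5a, a factor that relieves stalled ribosomes and carries the hypusine modification, read 5.64 and 5.37 unstimulated, 6.62 and 6.04 with HL7G, and 6.72, 6.01 and 5.94 with the agonists. Its difference of 0.83 ± 0.27 was not called (adjusted p = 0.0733), though it was when the HL7G array of mouse 2 was left out (1.12, adjusted p = 0.0153). It was 0.32 after loess (adjusted p = 0.350), 0.41 after quantile normalization (adjusted p = 0.205) and 0.54 without the HL7G array of mouse 1 (adjusted p = 0.226).

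Nearly all genes of the eIF3 scaffold rose. Of 12 measured and tested subunit genes 11 were called higher, with a median difference of 2.07, and Eif3j1 did not pass the test. The count was 10 after median centring, 8 after loess and 10 after quantile normalization, 7 with mouse 2 unstimulated left out, 8 with mouse 1 HL7G left out and 0 with mouse 1 unstimulated left out. Eif3a, the largest subunit, read 4.35 and 5.23 unstimulated, 8.07 and 7.13 with HL7G, and 7.44, 7.47 and 6.97 with R848, CpG B and poly I:C. The unstimulated arrays lay well below all others, and the rise was 7.01-fold (2.81 ± 0.40, adjusted p = 0.0120). Eif3f, which carries an E-box and a pyrimidine tract in the stretches printed above, read 5.11 and 5.90 unstimulated, 8.42 and 8.18 with HL7G, and 7.78, 6.997 and 7.24 with the agonists. Both HL7G arrays lay above the agonist arrays, and the rise over unstimulated was 6.97-fold (2.80 ± 0.30, adjusted p = 0.0120), and 1.65 on the log2 scale after loess (adjusted p = 0.00924). Eif3e, a subunit also known as Int6, read 3.54 and 4.04 unstimulated, 6.36 and 5.46 with HL7G, and 5.87, 4.95 and 4.69 with the agonists, a rise of 2.12 ± 0.34 (adjusted p = 0.0137). Eif3k, with an E-box in its printed stretch, read 4.18 and 4.87 unstimulated and 6.92 and 6.55 with HL7G, and 6.10, 5.76 and 5.56 with the agonists.

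The exception, Eif3j1, encodes a loosely bound subunit that sits near the decoding site. It read 5.601 and 5.95 unstimulated, 5.78 and 5.46 with HL7G, and 6.15, 6.23 and 6.05 with the agonists. Its unstimulated and HL7G arrays overlapped (-0.16 ± 0.24, adjusted p = 0.650), and all 3 agonist arrays lay above them. The difference was just above 0 when either array of mouse 2 was left out (0.018 for the unstimulated and 0.0027 for the HL7G array). The other 8 eIF3 genes that rose, Eif3b, Eif3c, Eif3d, Eif3h, Eif3i, Eif3k, Eif3l and Eif3m, ranged from 1.08 ± 0.29 (Eif3i, adjusted p = 0.0433) to 2.26 ± 0.33 (Eif3h, adjusted p = 0.0121). Of these genes, Eif3l passed the level filter of 5 through the HL7G arrays alone (6.001 and 5.19). It read 3.58 and 4.01 unstimulated, and its highest agonist array, R848, read 4.99. Eif3b and Eif3d lost the call after loess (1.08, adjusted p = 0.0541, and 0.999, adjusted p = 0.0646). Eif3i lost it under all 3 other scalings, with 0.96 after median centring (adjusted p = 0.0555), 0.085 after loess (adjusted p = 0.805) and 0.35 after quantile normalization (adjusted p = 0.251). Eif3d had a second probe set near background that did not move (0.03), and its call was also lost when the probe sets were averaged (0.797, adjusted p = 0.0767).

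**Figure D2:**
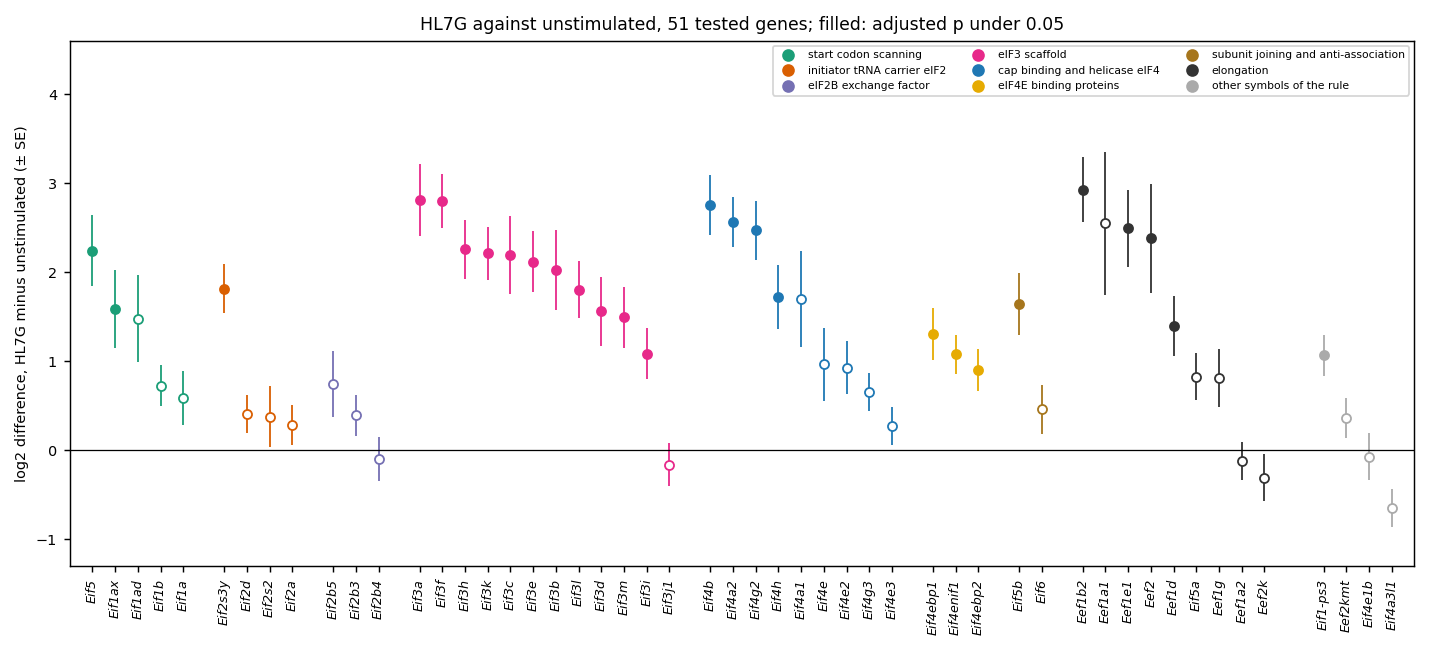
Log2 difference between HL7G and unstimulated (y axis) with its SE for the 51 tested genes, grouped by role and ordered by size (n = 2 arrays a group). Filled points passed the test (27 genes), the largest being Eef1b2 at 2.93, and no filled point lies below 0.

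Among the eIF4 genes of cap binding and unwinding 4 of 9 rose (Eif4a2, Eif4b, Eif4g2 and Eif4h), with a median of 1.70. The median was 0.95 after loess, 0.98 after quantile normalization and 0.96 without the mouse 1 unstimulated array. After loess the 4 kept the call with Eif4b at 1.70, Eif4g2 at 1.24 and Eif4a2 at 1.14. Eif4b, a cofactor of the helicase, read 4.87 and 5.61 unstimulated, 8.32 and 7.68 with HL7G, and 7.57, 7.10 and 7.31 with the agonists. Its rise was 6.76-fold (2.76 ± 0.33, adjusted p = 0.0120). Eif4a2, a paralogue of the helicase eIF4A, read 5.67 and 6.40 unstimulated, 8.59 and 8.61 with HL7G, and 8.16, 7.81 and 8.30 with the agonists. The HL7G arrays of the mice were nearly equal, and the rise was 5.92-fold (2.57 ± 0.29, adjusted p = 0.0120). The 3 probe sets of Eif4a2 had mean differences of 2.57, 2.68 and 3.07. Eif4g2, also called DAP5, a scaffold that lacks the eIF4E-binding part, read 5.22 and 5.76 unstimulated, 8.35 and 7.58 with HL7G, and 8.21, 7.99 and 7.38 with the agonists, a rise of 2.47 ± 0.33 (adjusted p = 0.0120). Eif4h, a helicase cofactor with an E-box in its printed promoter stretch, rose by 1.72 ± 0.36 (adjusted p = 0.0224).

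Eif4a1, the main eIF4A helicase, repeated the pattern of Eef1a1. It read 10.39 on the unstimulated array of mouse 1 and 12.26 on that of mouse 2, 12.99 and 13.07 with HL7G, and 12.79, 13.13 and 12.84 with the agonists. The stimulated arrays were nearly level, and the HL7G difference was 2.59 in mouse 1 and 0.81 in mouse 2. The mean of 1.70 ± 0.54 was not called (adjusted p = 0.0709) but passed once the mouse was a block (adjusted p = 0.0294). It was also called after quantile normalization (0.98, adjusted p = 0.0476), with the mean of all probe sets (1.51, adjusted p = 0.0335) and when the unstimulated array of mouse 2 was left out (2.64, adjusted p = 0.00850). After loess the difference was 0.042 (adjusted p = 0.930), and without the unstimulated array of mouse 1 it was 0.77 (adjusted p = 0.242). Eif4e, the cap-binding protein itself, read 4.04 in both unstimulated samples, 5.66 and 4.36 with HL7G, and 5.18, 5.03 and 4.49 with the agonists. All stimulated arrays lay above the unstimulated ones, but the HL7G arrays of the mice differed, and 0.97 ± 0.41 was not called (adjusted p = 0.137). It was called when the HL7G array of mouse 2 was left out (1.62, adjusted p = 0.00283). The related cap binders Eif4e2 and Eif4e3 and the scaffold Eif4g3 had 0.93 ± 0.30, 0.27 ± 0.21 and 0.66 ± 0.21 (adjusted p = 0.0730, 0.373 and 0.0708).

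All 3 measured genes for proteins that bind eIF4E and hold back cap-dependent initiation rose, with a median of 1.08, and 2 of the 3 with the mouse as a replicate block. The count was 2 after median centring, 2 after quantile normalization and 1 after loess, with medians of 0.95, 0.84 and 0.87. Eif4ebp1, the mTOR-regulated repressor 4E-BP1, read 5.08 and 5.12 unstimulated, 6.79 and 6.02 with HL7G, and 6.52, 5.92 and 6.05 with R848, CpG B and poly I:C. The unstimulated arrays agreed closely and all others lay above them, with a rise of 2.47-fold (1.30 ± 0.29, adjusted p = 0.0267). Its call was lost after loess (0.87, adjusted p = 0.0519), in the fit that leaves out mouse 2 unstimulated (adjusted p = 0.102) and in the fit that leaves out mouse 1 HL7G (0.92, adjusted p = 0.0516). Eif4ebp2, its paralogue, rose by 0.90 ± 0.23 (adjusted p = 0.0400), a call lost with the block (adjusted p = 0.0555) and under all 3 other scalings. Its difference was 0.77 after median centring (adjusted p = 0.0656), 0.065 after quantile normalization (adjusted p = 0.869) and turned to -0.27 after loess (adjusted p = 0.491). Eif4enif1, which carries eIF4E into the nucleus and to processing bodies, rose by 1.08 ± 0.22 (adjusted p = 0.0202), a call kept under all 3. It read 4.15 and 4.30 unstimulated, under the level of 5 on both arrays, and 5.39 and 5.22 with HL7G.

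Genes of initiator tRNA delivery gave 1 call. Of 4 measured eIF2-related genes 1 rose, Eif2s3y, the Y-linked copy of the gene for the GTP-binding subunit. It read 2.91 and 3.35 unstimulated, 5.18 and 4.71 with HL7G, and 4.04, 3.91 and 3.64 with the agonists. Both HL7G arrays lay above the agonist arrays, which lay above the unstimulated ones, and the rise was 3.52-fold (1.82 ± 0.27, adjusted p = 0.0123). It passed the level filter through 1 array, the mouse 1 HL7G array, and its call was lost with a variance trend (adjusted p = 0.136). Eif2s2, Eif2a and Eif2d had 0.38, 0.29 and 0.41, and Eif2s2 had -0.13 without the HL7G array of mouse 1 and 0.88 without that of mouse 2 (adjusted p = 0.780 and 0.0329). Of 5 genes of the exchange factor eIF2B, 3 were tested and 0 were called, and 0 had an unadjusted p under 0.05. The median over the 5 was 0.39, and the largest tested difference was that of Eif2b5 (0.75 ± 0.37, adjusted p = 0.190), which was called without the HL7G array of mouse 2 (1.29, adjusted p = 0.00866).

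Among 5 genes of start codon scanning 2 rose, with a median of 1.48. Without the HL7G array of mouse 1 the median was 0.67 with 1 call, without that of mouse 2 it was 2.28 with 5 calls, and after loess it was 0.83 with 1 call. Eif5, which triggers GTP hydrolysis on eIF2 at the start codon, rose 4.73-fold (2.24 ± 0.40, adjusted p = 0.0163). Eif1ax, an X-linked gene for the scanning factor eIF1A, read 4.49 and 4.84 unstimulated, 6.94 and 5.55 with HL7G, and 6.97, 6.65 and 5.97 with the agonists. Its unstimulated arrays were the lowest and the mouse 2 HL7G array lay below all 3 agonist arrays, with a rise of 1.58 ± 0.44 (adjusted p = 0.0484). That call was lost after median centring and after loess, and with no filter on level, and the difference was 0.89 without the HL7G array of mouse 1 (adjusted p = 0.0747). Eif5b, the GTPase that joins the ribosomal subunits, rose by 1.65 ± 0.35 (adjusted p = 0.0231). Eif6, which keeps the subunits apart, read 5.74 and 5.53 unstimulated, 6.42 and 5.77 with HL7G, and 6.08, 5.87 and 5.94 with the agonists. Its difference of 0.46 ± 0.28 was not called (adjusted p = 0.263).

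The 9 other symbols of the rule had a median of -0.03, and 1 of them rose, the pseudogene Eif1-ps3 (1.07 ± 0.23, adjusted p = 0.0233), with 0.37 after loess and 0.54 after quantile normalization (adjusted p = 0.250 and 0.119). Whether its probes also read Eif1 was not tested. Eif4a3l1, a gene like the exon junction helicase Eif4a3, had the lowest difference in the family. It read 6.28 and 6.43 unstimulated, 5.71 on both HL7G arrays, and 5.57, 5.92 and 6.26 with the agonists. The difference of -0.65 ± 0.21 was not called (adjusted p = 0.0742), but it was after median centring (-0.78, adjusted p = 0.0494), loess (-1.11, adjusted p = 0.0175) and quantile normalization (-1.16, adjusted p = 0.0112). Eif4a3 itself was not tested.

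The HL7G difference was larger in mouse 1 than in mouse 2 for 53 of the 60 genes, where this held for 45.2% of all genes. The median was 1.35 in mouse 1 and 0.69 in mouse 2, against -0.17 and -0.03 over all genes, and 48 of the 60 lay above 0 in both mice (29% of all genes). In 19 genes the difference was at least 2-fold in both mice (4.37% of all genes). Across the 60 genes the differences of the mice had r = 0.864. The points share arrays and normalization, and genes are not independent replicates. Both ends of the comparison contributed. The unstimulated array of mouse 2 read above that of mouse 1 in 37 of 60 genes (47.3% of all genes), and the HL7G array of mouse 2 read below that of mouse 1 in 53 (45.8% of all genes).

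**Figure D3:**
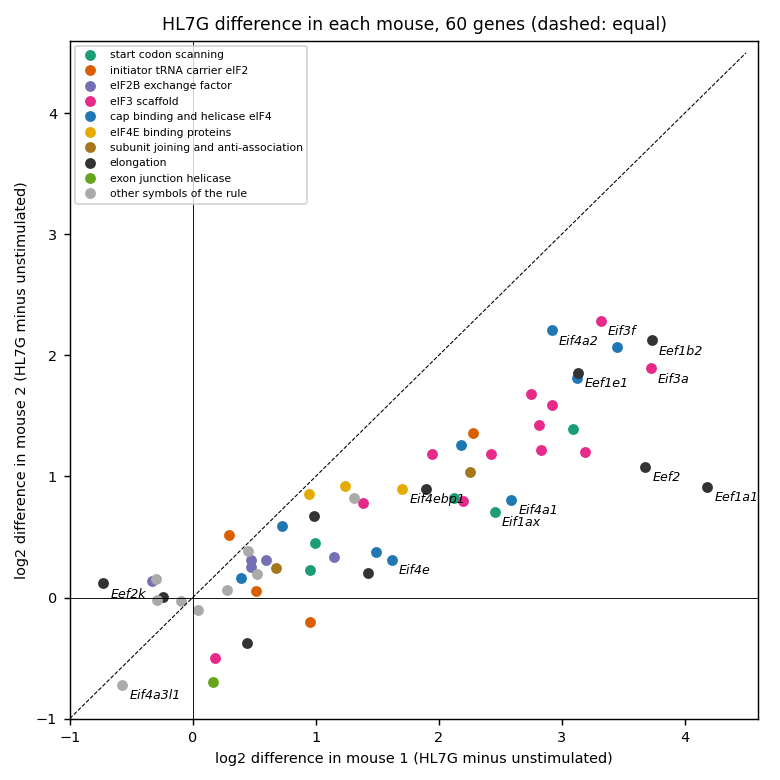
Log2 difference between HL7G and unstimulated in mouse 1 (x axis) and mouse 2 (y axis) for the 60 genes, coloured by role, with 1 array per condition and mouse. In 53 genes the point lies below the dashed line of equal differences, farthest for Eef1a1 (4.18 and 0.91).

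Each agonist, on 1 array of mouse 1, was set against the same unstimulated arrays as HL7G, so these comparisons share controls. No gene of the family and none of the 11119 tested was called in limma with R848, CpG B or poly I:C (0% in each). At an unadjusted p under 0.05 there were 30, 20 and 17 of the 51 tested members, against 22.9%, 12.3% and 9.48% of all genes tested. The medians over the 60 genes were 0.94, 0.61 and 0.60, against -0.04, -0.06 and -0.06 over all genes, and 50, 50 and 51 of the 60 lay above 0. With R848 Eif4g2 was 2.72 ± 0.40 higher, Eif3a 2.65 ± 0.50 and Eef1b2 2.52 ± 0.45 (adjusted p = 0.0854 for each). With CpG B the same 3 genes had the largest differences, 2.67 for Eif3a, 2.50 for Eif4g2 and 2.35 for Eef1b2 (adjusted p = 0.207 for each). With poly I:C they were Eif4a2 (2.26 ± 0.35, adjusted p = 0.383), Eef1a1 (2.19 ± 0.98, adjusted p = 0.545) and Eif3a (2.18 ± 0.50, adjusted p = 0.429). The counts of calls differed with the arrays in the fit. Without either HL7G array, which leaves the unstimulated pair as the source of the spread, 26, 12 and 7 members were called, against 13.9%, 4.77% and 1.78% of all genes. Without the mouse 2 unstimulated array fewer members were called with each agonist, and that fit also has the mouse 1 array alone as the baseline. Without the mouse 1 unstimulated array none were called.

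At the low end with R848 were Eif4a3l1 (-0.78 ± 0.26, adjusted p = 0.147), Eef2k (-0.50 ± 0.32, adjusted p = 0.401) and Eef1a2 (-0.28 ± 0.26, adjusted p = 0.568). With CpG B they were Eef1a2 (-0.64, adjusted p = 0.396), Eif4a3l1 (-0.43, adjusted p = 0.537) and Eif1b (-0.24, adjusted p = 0.783), a paralogue of the scanning factor eIF1. Eif1b read 5.08 and 5.4002 unstimulated, 6.08 and 5.85 with HL7G, and 5.498, 5.003 and 5.49 with R848, CpG B and poly I:C, so that the CpG B array was the lowest of the 7. With poly I:C they were Eif2a (-0.25, adjusted p = 0.815), Eif2b4 (-0.16, adjusted p = 0.906) and Eif2d (-0.14, adjusted p = 0.904). None of these passed the test. By role, the eIF3 genes had medians of 1.70, 1.20 and 1.03 with R848, CpG B and poly I:C, the eIF4 genes 1.46, 1.01 and 0.97, and the elongation genes 1.04, 0.48 and 0.62. In the eIF3 group all 12 genes, Eif3j1 included, lay above 0 with each agonist.

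**Figure D4:**
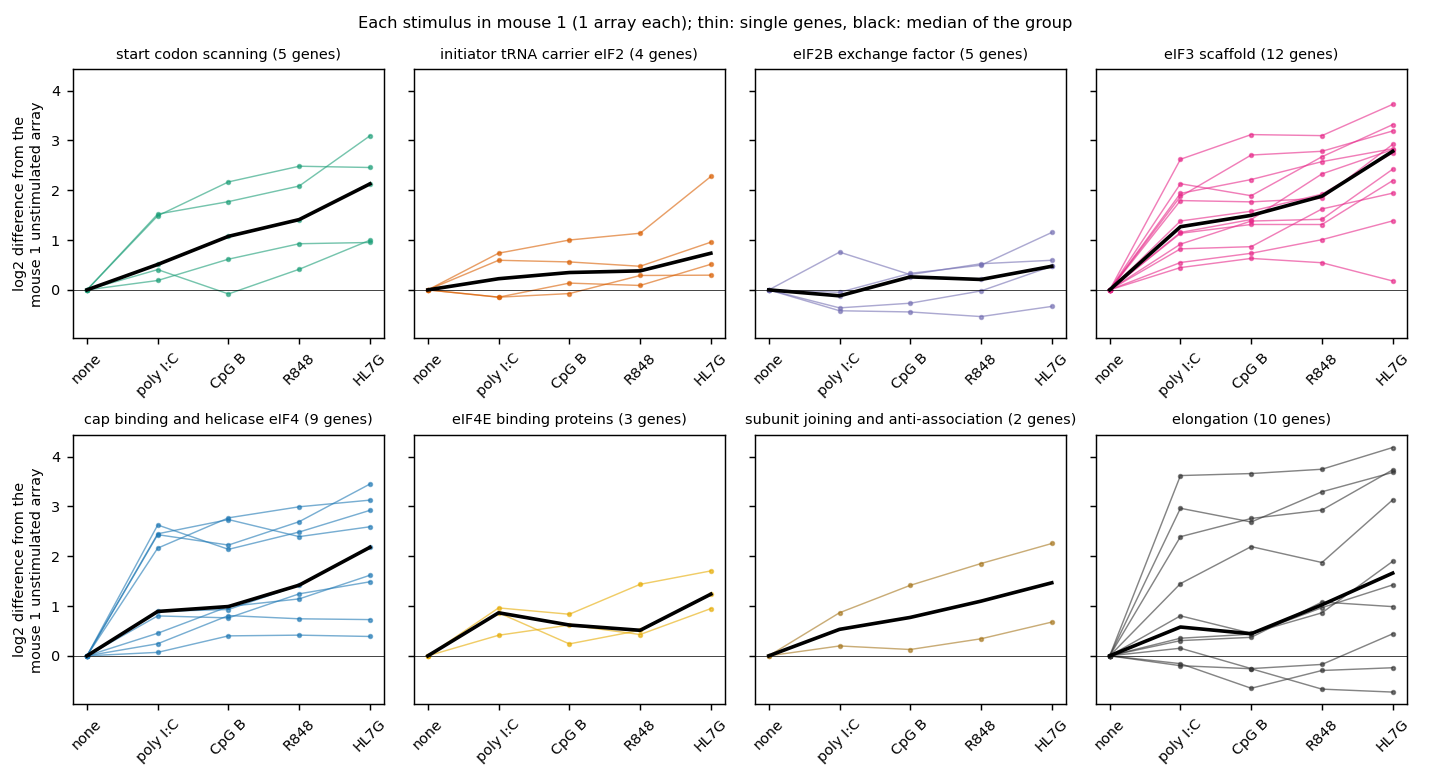
Log2 difference of each mouse 1 array from the mouse 1 unstimulated array (y axis) for poly I:C, CpG B, R848 and HL7G (x axis, 1 array each), in 8 role groups. Thin lines join the values of 1 gene, the black line is the median of the group, and the order of the treatments has no scale. HL7G is the highest of the 5 arrays in 44 of all 60 genes (24.4% of all genes measured).

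HL7G was then set against the mean of the 3 agonists, a comparison in which no unstimulated array enters the difference. No member and no other gene was called (0%), and 8 of 51 members had an unadjusted p under 0.05 against 10.8% of all genes tested. The median over the 60 genes was 0.24, against -0.02 over all genes, with 49 of 60 above 0. The largest differences were those of Eif2s3y (1.08 ± 0.25, adjusted p = 0.338), Eif3f (0.96 ± 0.28, adjusted p = 0.367) and Eif3k (0.93 ± 0.27, adjusted p = 0.370), and the lowest those of Eif3j1 (-0.52 ± 0.22, adjusted p = 0.463), Eif1ax (-0.28 ± 0.40, adjusted p = 0.846) and Eif4a3l1 (-0.21 ± 0.19, adjusted p = 0.746). Eif1ax had 0.41 without the mouse 2 HL7G array. The mice differed here. The HL7G array of mouse 1 lay above all 3 agonist arrays of the same mouse in 45 of 60 genes (28.1% of all genes), while the HL7G array of mouse 2 did so in 19 (26.2% of all genes).

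The agonists were also compared among themselves, as the mean of R848 and CpG B against poly I:C, all in mouse 1. No gene was called (0%), and 0 of 51 members had an unadjusted p under 0.05 against 1.68% of all genes tested. The median over the 60 genes was 0.24, against 0.02 over all genes. Eif3c (0.87 ± 0.53), Eif1ax (0.84 ± 0.54) and Eif5b (0.77 ± 0.43) were highest and Eif4a3l1 (-0.51 ± 0.26), Eif4enif1 (-0.49 ± 0.26) and Eef1a2 (-0.32 ± 0.26) lowest (adjusted p = 1.00 for each). Eif3c read 7.60, 7.52 and 6.69 with R848, CpG B and poly I:C, and Eif5b read 5.89, 5.45 and 4.90. Poly I:C was the lowest of the 4 stimulated mouse 1 arrays in 34 of the 60 genes (24.2% of all genes).

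Members whose mRNAs are known TOP mRNAs (Eef1a1, Eef1b2, Eef1d, Eef1g, Eef2, Eif3e, Eif3f, Eif3h and Eif4b) were read as a group. With HL7G 7 of 9 rose, with a median of 2.38, beside 20 of the 42 other tested members with a median of 1.02. Eef1a1 and Eef1g were the members not called. The larger share of calls did not hold among bright members. Where the mean level reached 6, 3 of 6 TOP members rose beside 8 of 14 others, with medians of 2.65 and 1.71. After loess 6 of 9 rose beside 13 of 42, with medians of 1.65 and 0.65. Without the mouse 1 unstimulated array the medians were 1.87 and 0.95. The medians of the TOP members with R848, CpG B and poly I:C were 2.26, 1.496 and 1.74. Introns of some members hold small nucleolar RNAs. Of the 7 such genes measured (Eef1b2, Eef2, Eif3a, Eif4a1, Eif4a2, Eif4g2 and Eif5) 6 rose, with a median of 2.47, and Eif4a1 was the one not called. Where the probes of these genes lie was not given, so whether they read the mRNA or an intronic RNA was not tested. Among the 44 other tested members 21 rose, with a median of 1.02. After loess 5 of the 7 were called with a median of 1.24, beside 14 of the 44 with a median of 0.80.

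Genes outside the family that act with these factors were taken from a list of regulators and partners. Of 28 measured, 25 were tested, 11 rose and 0 fell with HL7G, against 16.3% and 1.89% of all genes tested. The median over the 28 was 0.76, against -0.12 over all genes. Abce1, which recycles ribosomes after termination, read 3.66 and 4.67 unstimulated, 7.64 and 5.597 with HL7G, and 6.79, 6.42 and 6.19 with the agonists (2.45 ± 0.65, adjusted p = 0.0418). The mouse 2 HL7G array lay above both unstimulated arrays but below the agonists. The termination factor gene Etf1 rose by 2.42 ± 0.42 (adjusted p = 0.0149) and Tpt1, itself a TOP mRNA gene, by 2.24 ± 0.49 (adjusted p = 0.0242). Factors of mitochondrial translation were mostly dim. Of 10 measured 2 were tested, Gfm2 rose by 0.87 ± 0.24 (adjusted p = 0.0475) but passed the level filter through the mouse 1 HL7G array alone (5.05), Tufm had -0.22 ± 0.28, and the median over the 10 was 0.20.

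**Figure D5:**
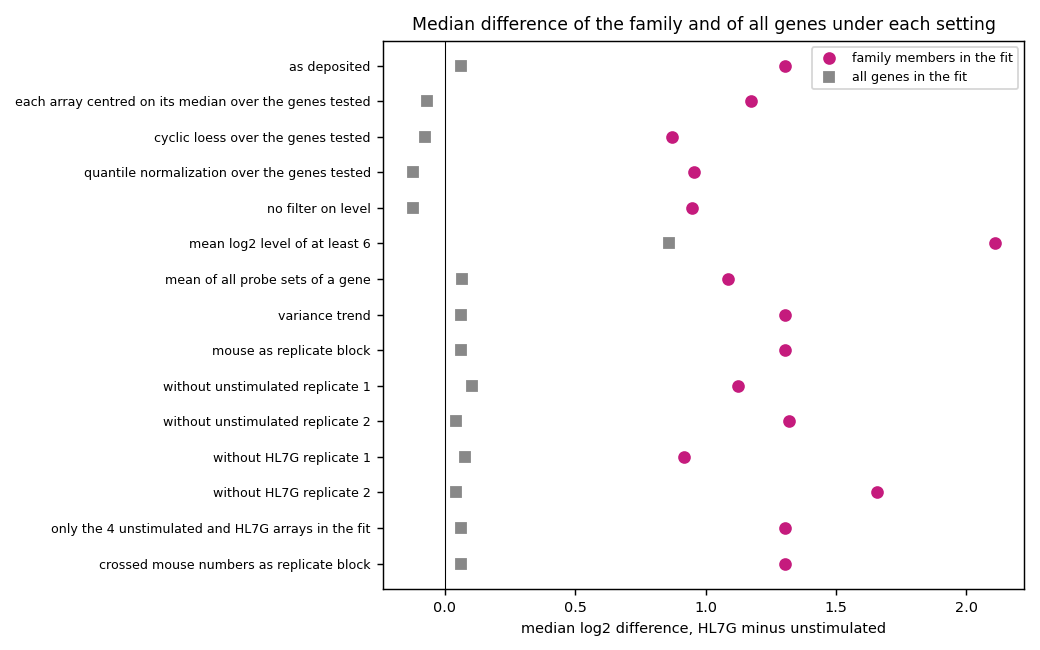
Median log2 difference between HL7G and unstimulated (x axis) of the family members in the fit (circles) and of all genes in the fit (squares) under each setting (rows). The family median lies between 0.87 (loess) and 2.11 (mean level of at least 6) and to the right of the all-gene median in each row.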

How the data were processed

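The authors deposited 1 log2 value per probe set and array, on the scale RMA gives. The submitters' processing notes name RMA, Affymetrix Expression Console and Transcriptome Analysis Console, without versions. RMA subtracts background, quantile-normalizes and summarizes probes. Of 41345 probe sets GEO's platform annotation gives 23521 a single symbol, 1814 several, and 16010 are not listed there. All 60 family Entrez identifiers matched RefSeq (GRCm38.p6), with 0 symbols changed. No source used here names the build of the array design, so only promoter windows have coordinates.

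A gene was tested if any array reached a log2 level of 5. The test was that of limma (3.58.1, under R 4.3.3), in 1 fit of 7 arrays and 5 groups, 2-sided, with Benjamini-Hochberg adjustment over 11119 genes. The fit had 2 residual and 4.94 prior degrees of freedom. The fit was also run on simulated data, with independent values and the same spread of a gene on each array. Those data had no deviating array, so that run does not bear on the shifts between arrays described above. The number of arrays limits the precision, p-values rest on 2 animals, and single agonist arrays were assumed to vary like the replicated groups. Same-numbered arrays came from the same mouse, so the numbers pair the samples. The deviations of the pairs had r = -0.146 over all genes tested.

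The members and lists were chosen with earlier results of these data known. Genes given in full were the 8 largest rises and 4 largest falls with HL7G, the 3 largest each way in every other comparison, and a fixed set (Eif2s3y, Eif3e, Eif4a1, Eif4e, Eif4ebp1, Eif4g2, Eif5a, Eif6, Eef1a1, Eef1b2, Eef2, Eef2k and those not analysed here). Pseudogenes are not named by size, and up to 3 genes were named from each outside list. Other genes named were singled out after their values were seen. Cell type lists also covered NK cells, neutrophils, platelets, plasmacytoid dendritic cells and red pulp macrophages, with 0 genes called among those tested, and erythroid cells, with 0 genes measured. Alternatives were other scalings, filters, probe set averaging, a variance trend, the mouse as a block, each replicate left out, and only the 4 unstimulated and HL7G arrays.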

Additional observations from a re-analysis of the deposited data

How the results depend on the processing

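The 27 family genes called higher with HL7G became 25 with median centring and with quantile normalization (24 higher and 1 lower in each), 20 with loess (19 higher and 1 lower), 26 with no filter, 11 of 20 with a mean level of at least 6, 27 with the mean of probe sets, 24 with a variance trend and 27 with only the 4 unstimulated and HL7G arrays. Of the 27, 19 were called higher under all 3 other scalings, and Eef2, Eif1-ps3, Eif1ax, Eif3b, Eif3d, Eif3i, Eif4ebp1 and Eif4ebp2 were not. Over all genes tested, 89.6% of calls were higher in the deposited values, 78.4% with centring, 68.7% with loess and 57.6% with quantile normalization, and the all-gene median moved from 0.06 to -0.07, -0.08 and -0.12. With the mouse as a block 29 were called, 26 of them shared: Eef1a1, Eif1ad and Eif4a1 gained the call and Eif4ebp2 lost it. The crossed pairing, added after the correlation was seen, called 29. Leaving out 1 replicate gave 0 to 35 calls with HL7G, 0 to 26 with R848, 0 to 12 with CpG B and 0 to 7 with poly I:C, and leaves 1 residual degree of freedom. R848 had 17 calls (16 higher, 1 lower) with quantile normalization and 1 with a variance trend, and CpG B had 5 with quantile normalization. The shares over all genes in those agonist fits are not given here, so these counts are not set against a background. Members with both unstimulated arrays above the rest went from 1 to 2 under each of the 3 other scalings. Differences between HL7G and unstimulated turned sign in 6 tested members. After loess Eef1g went to -0.14 and Eif4ebp2, called in the deposited values, to -0.27. With 1 array left out the ranges were -0.33 to 0.018 for Eif3j1 (0.0027 without the HL7G array of mouse 2), -0.13 to 0.88 for Eif2s2, -0.36 to 0.16 for Eif2b4 and -0.37 to 0.22 for Eif4e1b. Among the genes named in other comparisons, Eif2b4 with poly I:C (-0.42 to 0.096) and Eif1ax against the agonists (-0.98 to 0.41) did so. The cause was not tested. Over single genes and settings, 912 values kept direction and call, 73 lost the call and 48 gained it. Dim genes are limited by signal over background.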
